A study of Mus musculus with 6 samples.

Results

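The 100 genes described here share the line pattern of Enpp1 in 6 cultured mouse mammary cell lines. They were chosen by their measured levels in all 6 lines. Levels were taken as CPM, the count of a gene per megacount of its library (the library total scaled to 1000000). A gene was chosen when it lay on an autosome other than chromosome 14 and had at least 10 CPM in both 16IC_1984 and 16IC_4982. It also had to be at least 8 times higher in both of these lines than in the highest of the other 4 lines. Of 23449 genes in the deposited table, 8546 met the chromosome and level conditions, and 100 of these, 1.17%, also met the ratio. The levels and ratios of the members in these lines are therefore a description of the choice and not a result of a test.

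The 6 lines came from mammary tissue of female FVB/N mice, and every culture contained 10 ug/mL doxycycline, 10% serum, EGF, insulin and pituitary extract. The 3 lines of genotype 16IC/WT are 16IC_1984, 16IC_4982 and 16IC_7391, and the 3 lines of genotype EIC/WT are EIC_4026, EIC_NT and EIC_7559. The labels do not spell out these names. As known of the study, 16IC carries a doxycycline-inducible HER2 splice form that lacks exon 16, and EIC carries inducible wild-type ErbB2. Each line is 1 library, the labels do not say which animals or clones the lines came from, and none of the lines was grown without doxycycline. The 3 values of a group are given below in the order in which its lines are named here. Library totals ran from 15621563 to 17468498 counts, so that 3 counts, the upper limit that a count of 0 allows, are between 0.172 and 0.192 CPM. Such limits cover counting error only.

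ENPP1 is a membrane ectoenzyme that splits extracellular nucleotides, among them ATP and the STING messenger cGAMP. Epithelial cells are joined by tight junctions, adherens junctions and desmosomes, sort proteins to an apical and a basolateral surface, and carry membrane-bound serine proteases held in check by inhibitors. ZEB1 and ZEB2 are repressors of many epithelial genes and bind E-box sequences in their promoters.

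Enpp1 lay on the minus strand of chromosome 10 (chr10:24637914-24712159, minus strand, GRCm38). It had 41.2, 62.1 and 1.79 CPM in the 16IC lines, against 0.63, 0.0597 and 2.95 CPM in the EIC lines. The level was thus high in 16IC_1984 and 16IC_4982 and low in the third 16IC line, which was inside the range of the EIC lines. On the length-scaled FPKM scale of the deposited table Enpp1 had 3.72, 5.79 and 0.176 FPKM in the 16IC lines, against 0.0593, 0.00553 and 0.307 FPKM in the EIC lines. The lower of the 2 high lines was 13.9 times the highest of the other 4, EIC_7559. This places Enpp1 below the median ratio of the members, 24.2, for which a low line at 0 counts was set to 3 counts.

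Across the members the median level was 53.0 CPM in 16IC_1984, 57.4 CPM in 16IC_4982 and 1.31 CPM in 16IC_7391, against 0.401, 0.119 and 0.521 CPM in EIC_4026, EIC_NT and EIC_7559. Together the members took 1.23 and 1.30% of all counts in 16IC_1984 and 16IC_4982 and 0.0445% in 16IC_7391, against 0.0225, 0.00893 and 0.0196% in the EIC lines. The ratio of the lower high line to the highest other line ran from 8.0 to 141. Of the members, 4 had no count in 16IC_7391, against 18, 34 and 13 in EIC_4026, EIC_NT and EIC_7559. EIC_NT was thus the line in which the members were lowest by median and most often at 0. In these bulk libraries fewer cells of a type and less RNA per cell cannot be told apart.

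**Figure D1:**
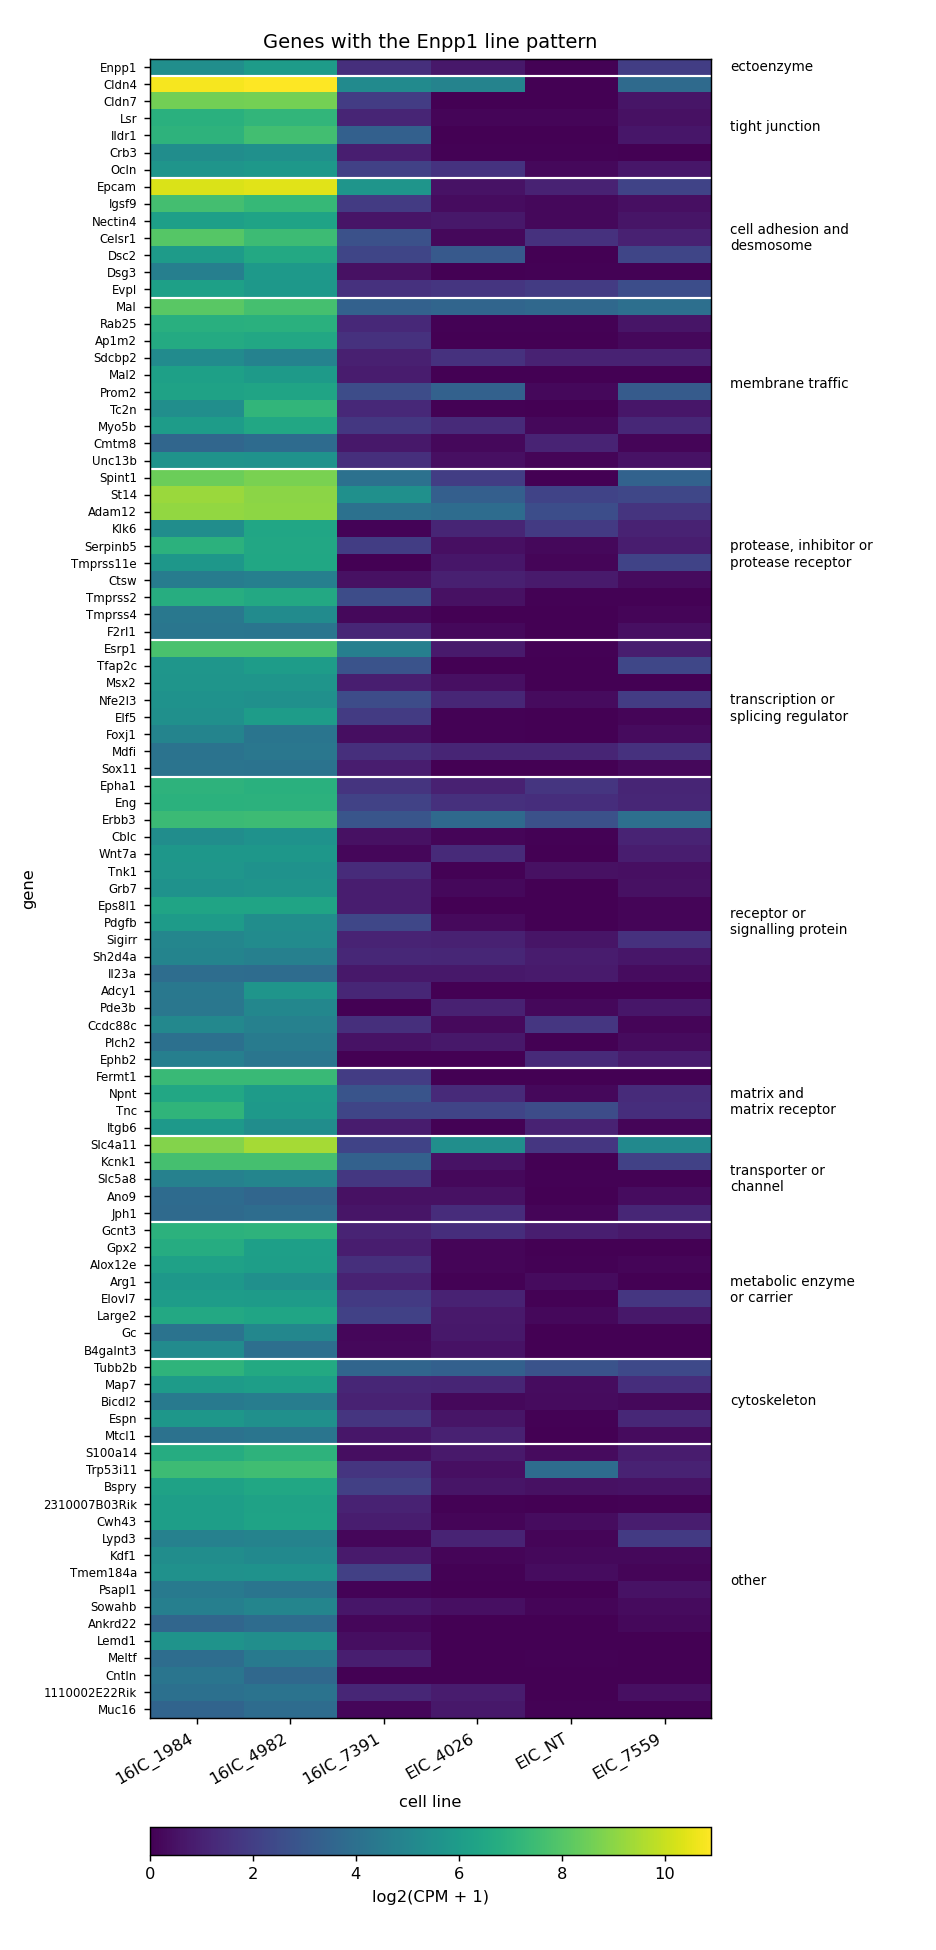
Levels of the member genes reported here (rows, grouped by role) in the 6 lines (columns, 16IC left of EIC) as log2(CPM + 1). The first 2 columns are high by the choice of the genes, and the other 4 differ among rows: St14, Epcam, Cldn4 and Esrp1 keep colour in 16IC_7391, Slc4a11 in EIC_4026 and EIC_7559, and Trp53i11 in EIC_NT.

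**Figure D2:**
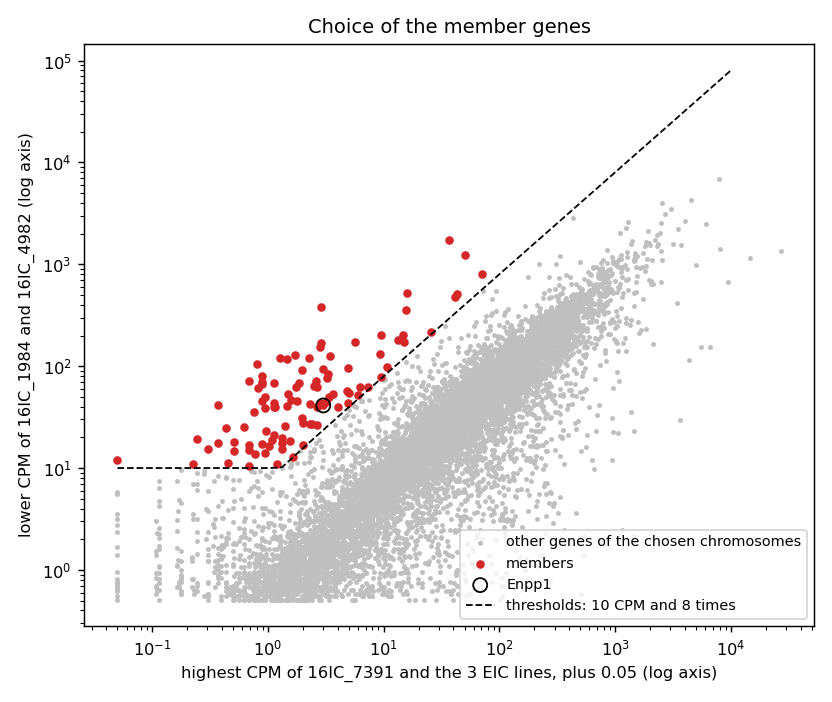
Lower CPM of 16IC_1984 and 16IC_4982 (y) against the highest CPM of the other 4 lines plus 0.05 (x), both on log axes, for genes of the chosen chromosomes with at least 0.5 CPM in both lines. Members (red) lie above the dashed thresholds of 10 CPM and 8 times, with Enpp1 (circled) at 41.2 against 2.95 CPM and several genes close to the line on either side.

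The thresholds cut through a continuous range of genes. Just inside the ratio were Jph1 at 8.0, Prom2 at 8.17 and Esrp1 at 8.53 times, and just outside were Pstpip2 at 7.99, Cadm4 at 7.70 and Lad1 at 7.47 times. Just inside the level were Muc16 with 10.4 CPM and Ankrd22 and Cmtm8 with 10.98 CPM each in the lower high line, and just outside were 1 gene model without a name at 9.51 CPM, Gna15 with 9.51 CPM and Smagp with 9.45 CPM. A further 5 genes met both thresholds on chromosome 14 or X, which the choice left out. They were Scara3 with 72.8 and 91.7 CPM in 16IC_1984 and 16IC_4982, Dok2 with 10.1 and 14.2 CPM, L1cam with 61.6 and 71.1 CPM, Pof1b with 22.3 and 29.8 CPM and Morc4 with 312 and 362 CPM.

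Tight junction proteins held the most abundant member. Cldn4, a claudin of the tight junction strand, had 1717, 1913 and 36.4 CPM in the 16IC lines, against 28.1, 0 and 12.5 CPM in the EIC lines. In FPKM it had 875, 1007 and 20.2 FPKM in the 16IC lines, against 14.9, 0 and 7.32 FPKM in the EIC lines. It was the highest member in both high lines, and it was uneven among the EIC lines, with no count in EIC_NT. Cldn7, another claudin, had 378, 399 and 2.82 CPM in the 16IC lines, against 0, 0 and 0.521 CPM in the EIC lines. Its 2 high lines stood 134 times or more above 16IC_7391, the next line, and it had no count in 2 EIC lines. Lsr and Ildr1 belong to the angulins, which sit at the corners where cells meet. Lsr had 120.2, 142 and 1.22 CPM in the 16IC lines, against 0.114, 0.119 and 0.405 CPM in the EIC lines. Ildr1 had 132, 190.4 and 9.28 CPM in the 16IC lines, against 0, 0 and 0.579 CPM in the EIC lines. Both were higher in 16IC_7391 than in any EIC line, as were all 6 members of this group. The remaining members were Ocln, the strand protein occludin, with 50.03 and 54.9 CPM in 16IC_1984 and 16IC_4982, and Crb3, an apical polarity protein, with 39.1 and 43.7 CPM.

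Adhesion proteins and desmosome components gave 7 members. Epcam, a homophilic adhesion glycoprotein of epithelia, had 1229, 1366 and 50.4 CPM in the 16IC lines, against 0.458, 1.08 and 3.53 CPM in the EIC lines. The 16IC_7391 value was above every EIC line and far below those of the other 16IC lines. Nectin4, an immunoglobulin-type adhesion molecule, had 71.2, 80.3 and 0.512 CPM in the 16IC lines, against 0.63, 0.179 and 0.521 CPM in the EIC lines. The desmosomal cadherins Dsc2 and Dsg3 differed in the low lines. Dsc2 had 62.8, 94.8 and 3.84 CPM in the 16IC lines, against 7.27, 0 and 3.82 CPM in the EIC lines. Dsg3 had 24.8, 57.4 and 0.384 CPM in the 16IC lines, against 0, 0.0597 and 0.0579 CPM in the EIC lines. Dsc2 was thus detected in EIC_4026 and EIC_7559 at levels that Dsg3 did not reach in any EIC line. Celsr1, an atypical cadherin of planar cell polarity, Igsf9, an immunoglobulin-domain membrane protein, and Evpl, the plakin envoplakin, had 261 and 175 CPM, 197 and 155 CPM and 72.8 and 55.1 CPM in 16IC_1984 and 16IC_4982.

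Membrane traffic proteins gave 10 members. Rab25, a GTPase of recycling endosomes in epithelia, had 118, 120.2 and 1.41 CPM in the 16IC lines, against 0.0572, 0.0597 and 0.521 CPM in the EIC lines. Ap1m2, the epithelial subunit of the AP-1B coat that sorts proteins to the basolateral surface, had 100.4, 91.7 and 1.92 CPM in the 16IC lines, against 0, 0 and 0.174 CPM in the EIC lines. Mal2, a raft protein of apical transport, had 71.9, 60.7 and 0.768 CPM in the 16IC lines, against 0 counts in each EIC line. These 3 genes were at or below 0.521 CPM in every EIC line. Mal, a relative of Mal2, kept a level in all low lines, with 277, 204 and 9.35 CPM in the 16IC lines, against 10.9, 12.01 and 14.7 CPM in the EIC lines, and 16IC_7391 was below every EIC line. Myo5b, the motor of recycling endosomes, and Prom2, a protein of membrane protrusions, had 64.1 and 92.2 CPM and 77.6 and 82.7 CPM in 16IC_1984 and 16IC_4982.

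The proteases, inhibitors and protease receptors counted 10 members. St14, the membrane serine protease matriptase, had 612, 512 and 42.9 CPM in the 16IC lines, against 8.82, 3.58 and 3.94 CPM in the EIC lines. Its inhibitor Spint1 had 355, 415 and 15.62 CPM in the 16IC lines, against 2.98, 0 and 9.61 CPM in the EIC lines. The protease and its inhibitor were both above every EIC line in 16IC_7391, and Spint1 had no count in EIC_NT. The type II membrane proteases Tmprss2, Tmprss4 and Tmprss11e had 109 and 95.8 CPM, 19.3 and 37.6 CPM and 52.8 and 88.9 CPM in 16IC_1984 and 16IC_4982. In the third 16IC line they parted, since Tmprss2 had 4.87 CPM in 16IC_7391, against 0.401, 0.0597 and 0.0579 CPM in the EIC lines, whereas Tmprss11e had 0 CPM in 16IC_7391, against 0.572, 0.119 and 3.59 CPM in the EIC lines. Klk6, a secreted kallikrein, had 39.4, 85.3 and 0.064 CPM in the 16IC lines, against 1.2, 2.63 and 1.04 CPM in the EIC lines. Serpinb5, the serpin maspin, had 126, 92.9 and 2.94 CPM in the 16IC lines, against 0.343, 0.179 and 0.811 CPM in the EIC lines. F2rl1, the receptor PAR2 that is activated by cleavage, had 18.4 and 17.6 CPM in the 2 high lines. Among the low lines 16IC_7391 was lowest for Klk6 and highest for Serpinb5. Adam12, a metalloprotease, had 553, 528 and 15.9 CPM in the 16IC lines, against 13.5, 5.02 and 2.08 CPM in the EIC lines.

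Regulators of transcription and splicing gave 9 members. Esrp1, which sets epithelial splice forms, had 217, 221 and 25.4 CPM in the 16IC lines, against 0.744, 0.0597 and 0.811 CPM in the EIC lines. It had the highest level in 16IC_7391 relative to the lower high line of all members, and 16IC_7391 was at least 8 times above each EIC line. Elf5, an ETS factor of mammary alveolar development, had 43.97, 64.01 and 2.75 CPM in the 16IC lines, against 0.0572, 0 and 0.116 CPM in the EIC lines. Tfap2c, the factor AP-2 gamma, had 52.7, 64.01 and 5.89 CPM in the 16IC lines, against 0, 0 and 4.05 CPM in the EIC lines. Tfap2c was at 0 in 2 EIC lines and close to the 16IC_7391 level in the third. The homeobox factor Msx2 and the forkhead factor Foxj1, which drives formation of motile cilia, had 50.4 and 49.8 CPM and 29.5 and 17.6 CPM in 16IC_1984 and 16IC_4982, and each was under 1 CPM in every other line. Sox11, Nfe2l3 and Mdfi were also in the group. Transcription factors were 7% of the members, against 6.42% of the other genes that met the level and chromosome conditions.

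Receptors and signalling proteins were the largest role, with 17 members. Erbb3, the partner receptor of ErbB2, had 171, 174 and 6.34 CPM in the 16IC lines, against 12.1, 5.5 and 15 CPM in the EIC lines. The 16IC_7391 value lay inside the range of the EIC lines. Grb7, an adaptor that binds ErbB receptors, had 45.5, 49.7 and 0.832 CPM in the 16IC lines, against 0.172, 0 and 0.405 CPM in the EIC lines. Pdgfb, a growth factor chain, had 62.7, 39.5 and 3.97 CPM in the 16IC lines, against 0.229, 0 and 0.116 CPM in the EIC lines. For both genes 16IC_7391 was above every EIC line. Eng, a co-receptor for TGF-beta family ligands that is best known from endothelium, had 125, 128 and 3.39 CPM in the 16IC lines, against 1.89, 1.67 and 1.27 CPM in the EIC lines. The other endothelial markers in the table, Kdr, Tek, Vwf, Esam, Cdh5 and Pecam1, were at most 1.15 CPM in the 16IC lines and at most 3.78 CPM in the EIC lines. The ephrin receptors Epha1 and Ephb2 had 133 and 119 CPM and 25.4 and 18.6 CPM in 16IC_1984 and 16IC_4982, and the ligand Wnt7a had 53.1 and 53.01 CPM. Ephb2 had no count in 16IC_7391 and EIC_4026.

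Matrix proteins and their receptors gave 5 members. Fermt1, the integrin activator kindlin-1, had 169, 169 and 2.82 CPM in the 16IC lines, against 0 counts in each EIC line. It thus had counts in the 16IC lines only. Tnc, the matrix glycoprotein tenascin C, had 139.6, 57.4 and 3.9 CPM in the 16IC lines, against 3.78, 4.78 and 1.68 CPM in the EIC lines. Itgb6, an epithelial integrin subunit, and Npnt, an integrin ligand, had 59.1 and 39.5 CPM and 92.99 and 62.6 CPM in the 2 high lines.

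Among transporters, channels and enzymes the low lines differed widely for Slc4a11, a membrane transporter. It had 476, 683 and 3.58 CPM in the 16IC lines, against 41.2, 2.33 and 35.2 CPM in the EIC lines. EIC_4026 and EIC_7559 were thus well above 16IC_7391 and EIC_NT. Kcnk1, a potassium channel, had 205, 205 and 9.47 CPM in the 16IC lines, against 0.458, 0 and 3.3 CPM in the EIC lines. The transporter Slc5a8, the scramblase family member Ano9 and the junctophilin Jph1 had between 11.1 and 30.02 CPM in the 2 high lines. Gpx2, an epithelial glutathione peroxidase, had 107, 70.2 and 0.832 CPM in the 16IC lines, against 0.114, 0 and 0 CPM in the EIC lines. Gcnt3, a mucin glycosyltransferase, had 129, 129.9 and 1.15 CPM in the 16IC lines, against 1.66, 0.896 and 0.695 CPM in the EIC lines. Gpx2 thus had counts in 1 EIC line, whereas Gcnt3 was detected in all 3. Arg1, the arginase gene near Enpp1 on chromosome 10, had 55.6, 43.1 and 1.09 CPM in the 16IC lines, against 0.0572, 0.239 and 0 CPM in the EIC lines. The fatty acid elongase Elovl7 had 64.01, 61.8 and 2.62 CPM in the 16IC lines, against 1.09, 0.0597 and 2.26 CPM in the EIC lines.

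Among the members with other or unassigned roles, S100a14, an EF-hand protein, had the largest measured ratio of all, 141 times. It had 106, 129.9 and 0.32 CPM in the 16IC lines, against 0.687, 0.239 and 0.753 CPM in the EIC lines. The ratio rests on 13 counts in EIC_7559. Its 95% interval for counting error, 82.2 to 265 times, overlaps that of Cldn7, 99.7 to 185 times, so the first place is not settled. Lemd1, a LEM-domain protein, had 47.5, 41.3 and 0.32 CPM in the 16IC lines, against 0 counts in each EIC line. Cntln was the only member with no count in any of the 4 low lines. It had 18.1 and 11.9 CPM in 16IC_1984 and 16IC_4982, from 283 and 191 counts. With 3 counts put in place of 0, the lower of the 2 high lines was 61.8 times the highest limit of the low lines. Its 95% interval for counting error against 16IC_7391 starts at 49.8 times. Trp53i11 had 179, 188 and 2.24 CPM in the 16IC lines, against 0.343, 13.3 and 1.04 CPM in the EIC lines, with EIC_NT above the other EIC lines.

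**Figure D3:**
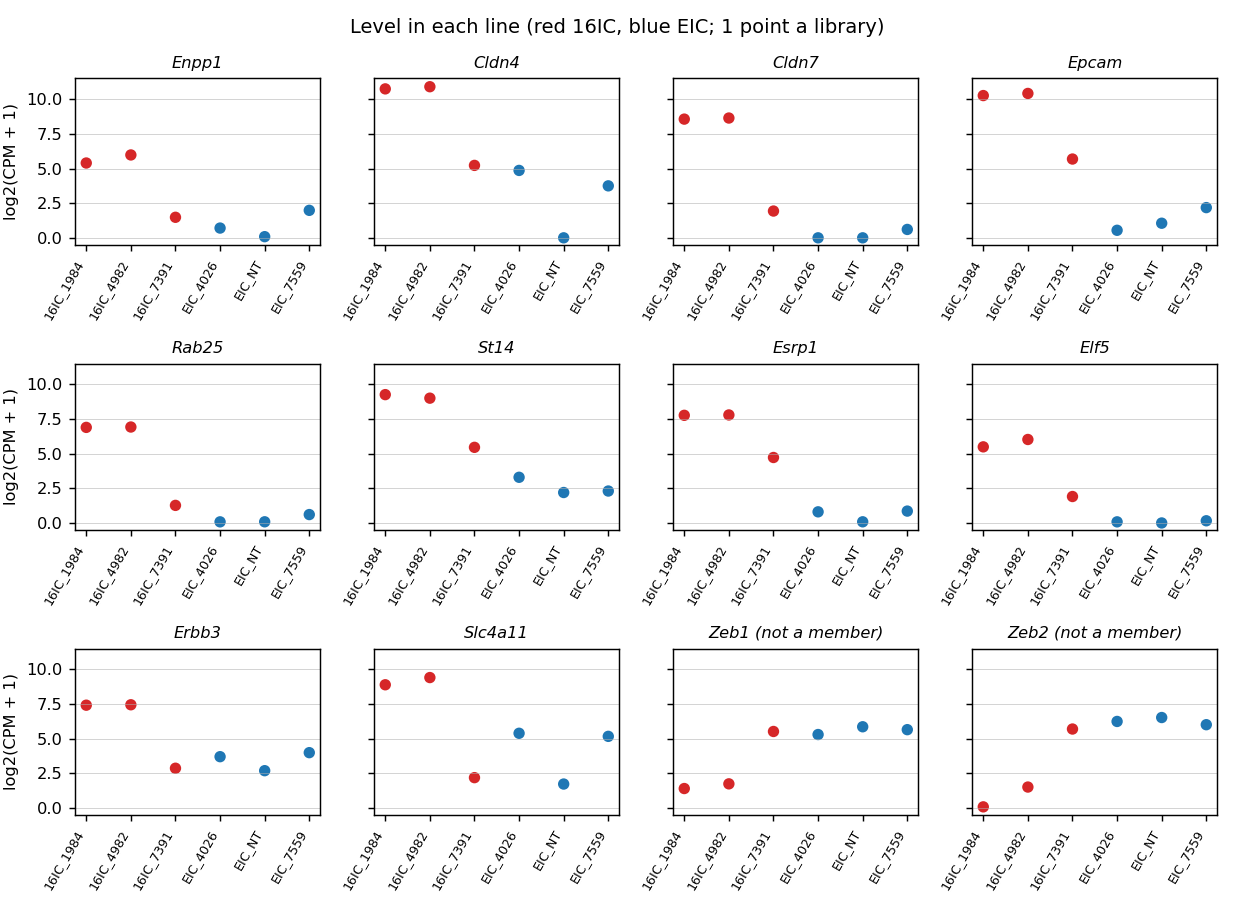
log2(CPM + 1) of 10 members and of Zeb1 and Zeb2, which are not members, in each line (red 16IC, blue EIC, 1 point for each library). Epcam, St14 and Esrp1 put 16IC_7391 above the EIC points, Enpp1, Erbb3 and Slc4a11 put it among or beside them, and Zeb1 and Zeb2 are low in the 2 lines where the members are high.

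The 2 high lines had like levels of most members. The ratio of 16IC_4982 to 16IC_1984 had a median of 1.02 and ran from 0.396 to 3.56, and 84 members lay within 1.5-fold. Among the 8446 other genes that met the level and chromosome conditions, 95.2% lay within 1.5-fold. Tc2n, a C2-domain protein, was the member that was highest in 16IC_4982 relative to 16IC_1984, with 40.9, 146 and 1.41 CPM in the 16IC lines, against 0.0572, 0 and 0.579 CPM in the EIC lines. Next came Adcy1, an adenylate cyclase, with 19.9 and 50.5 CPM in 16IC_1984 and 16IC_4982, followed by Dsg3, Klk6, Tmprss4 and Gc. At the other end B4galnt3, a glycosyltransferase, had 37.5 and 14.9 CPM in 16IC_1984 and 16IC_4982, followed by Tnc, Foxj1, Pdgfb, Gpx2 and Cntln. Across the 100 members the rank correlation of CPM between the 2 high lines was 0.926, against 0.979 across the 8446 other genes, a description across genes in 2 libraries.

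The third 16IC line did not take 1 place among the low lines. It was above all 3 EIC lines for 61 members, neither above nor below all of them for 33, ties included, and below all of them for 6, which were Pde3b, Klk6, Tmprss11e, Sdcbp2, Mal and Evpl. Since the choice had already put the other 16IC lines on top, those 61 members were higher in all 3 16IC lines than in all 3 EIC lines. That pattern was held by 18.7% of all 13698 tested genes. Those genes were not chosen for high levels in 16IC_1984 and 16IC_4982, so their share cannot be set against that of the members. 16IC_7391 was at least 8 times the highest EIC line for 17 members and at least 2 times for 44. The 17 included Epcam, Esrp1, Fermt1, Elf5, Tmprss2, Ildr1, Ap1m2, Crb3, Mal2, Slc5a8 and Pdgfb. Relative to the lower high line, the members with most signal in 16IC_7391 were Esrp1, Nfe2l3, Tfap2c and Tubb2b. By the same measure the leading members were Jph1, Prom2, Dsc2 and Tubb2b in EIC_4026, Cmtm8, Ccdc88c, Tnc and Ephb2 in EIC_NT, and Mdfi, Prom2, Jph1 and Lypd3 in EIC_7559. Jph1 and Prom2 led in both EIC_4026 and EIC_7559, and neither was among the leaders in EIC_NT. Among members, CPM ranks in EIC_4026 and EIC_7559 correlated at 0.705, against 0.498 for EIC_4026 with EIC_NT and 0.466 for EIC_NT with EIC_7559. The same pairs had 0.967, 0.906 and 0.895 among the other genes that met the level and chromosome conditions. The order of the pairs was thus not particular to the members.

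Likeness to Enpp1 was measured as Pearson's r of log2(CPM + 1) over the 6 lines. It ran from 0.842 to 0.992 among the other members. The 8 most alike were Elovl7 at 0.992, Sigirr at 0.990, Cblc at 0.988, Mdfi and Map7 at 0.986, Espn at 0.985, Myo5b at 0.983 and Nfe2l3 at 0.981. Sigirr, an inhibitory receptor of the interleukin-1 receptor family, had 30.9, 36.98 and 1.15 CPM in the 16IC lines, against 1.03, 0.538 and 1.91 CPM in the EIC lines. Cblc, an E3 ubiquitin ligase, had 39.5, 45.7 and 0.384 CPM in the 16IC lines, against 0.114, 0.0597 and 1.1 CPM in the EIC lines. Like Enpp1, both had their highest low-line value in EIC_7559. These correlations rest on 6 libraries and on genes chosen for this shape.

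Of 20 gene lists, 10 held at least 1 member, and 29 members were in a list. Membrane serine proteases and their inhibitors held 8 members among 14 genes that met the level and chromosome conditions, against 1.17% of all such genes. The 8 were St14, Spint1, Tmprss2, Serpinb5, Klk6, Tmprss11e, Tmprss4 and F2rl1. Of these, F2rl1 is a receptor, Klk6 is secreted and Serpinb5 is the serpin maspin, so the list is wider than its name. All lists were drawn up with earlier results of these data known, so the shares of members in them are a description. Tight junction proteins held 6 of 24, adherens junction and desmosome proteins 5 of 20, and luminal markers 4 of 15, namely Cldn4, Epcam, Cldn7 and Elf5. Not every gene of these families shared the pattern. The E-cadherin gene Cdh1 had 1116, 1009 and 267 CPM in the 16IC lines, against 89.02, 305 and 52.5 CPM in the EIC lines. The scaffold protein gene Tjp1 had 297, 321 and 308 CPM in the 16IC lines, against 314, 253 and 350.1 CPM in the EIC lines. The keratin gene Krt8 had 2810, 2127 and 573 CPM in the 16IC lines, against 1936, 1339 and 1666 CPM in the EIC lines. These genes, named after their values were seen, were detected in all 6 lines.

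In the list of growth factor receptors and ligands 3 of 12 were members, Erbb3, Pdgfb and Grb7, an adaptor that is neither receptor nor ligand. Epithelial transcription factors held 3 of 17, among them Tfap2c and Elf5. Other lists with 1 member were the splicing regulators with Esrp1 of 7, extracellular nucleotide handling with Enpp1 of 15, chemokines and cytokines with Il23a of 9, and endothelial markers with Eng alone. Esrp2, the paralogue of Esrp1, was outside the ratio with 111, 116 and 15.62 CPM in the 16IC lines, against 1.09, 2.51 and 0.811 CPM in the EIC lines. Nt5e, the ectoenzyme that makes adenosine downstream of ENPP1, was high in the EIC lines too, with 279, 384 and 22.9 CPM in the 16IC lines, against 175, 173 and 149 CPM in the EIC lines. The lists with 0 members were interferon-stimulated genes with 32 genes at this level, cGAS-STING genes with 16, milk and secretory genes with 13, glutathione and xenobiotic metabolism with 9, mesenchymal markers with 7, keratins with 4, basal markers with 2, and fibroblast and leukocyte markers with 1 each. Adipocyte markers had 0 genes at this level. The glutathione list did not include Gpx2, a glutathione peroxidase gene that is a member.

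**Figure D4:**
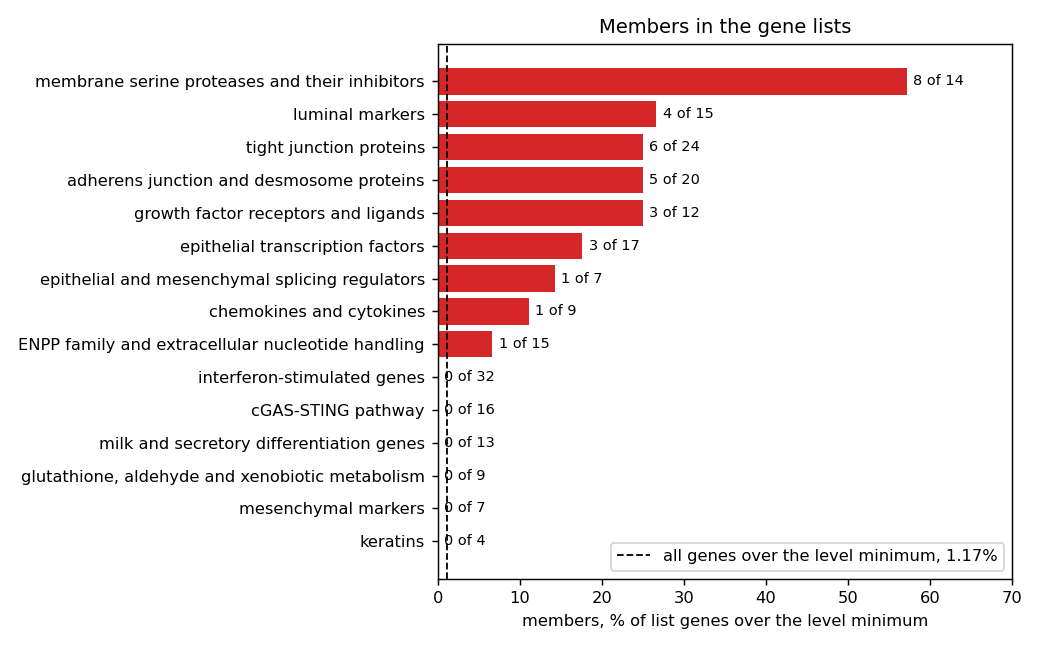
Share of genes in each list that are members (bars, with counts), among genes on the chosen chromosomes with at least 10 CPM in 16IC_1984 and 16IC_4982, for lists with at least 4 such genes. The dashed line is the share over all such genes, 1.17%. The list of membrane serine proteases and their inhibitors, which also holds a receptor and a secreted protease, stands at 57.1%. Junction proteins and luminal markers stand at 25.0 to 26.7%. The lists were drawn up with earlier results of these data known.

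Mesenchymal markers were low in the same 2 lines. Their summed level was 873, 653 and 5588 CPM in the 16IC lines, against 7018, 13238 and 7573 CPM in the EIC lines. Of 19 tested markers, 14 were lower in both 16IC_1984 and 16IC_4982 than in each of the other 4 lines, as were 14.5% of all tested genes, and none was higher in both. Other lists were low there too. Of 44 tested interferon-stimulated genes 35 were lower in both and 0 higher in both. Of 30 tested glutathione and xenobiotic metabolism genes 16 were lower in both and 2 higher in both. The epithelial repressor Zeb1, chosen after its values were seen, had 1.66, 2.36 and 45.1 CPM in the 16IC lines, against 38.6, 57.4 and 49.5 CPM in the EIC lines. Zeb2 had 0.0638, 1.86 and 51.1 CPM in the 16IC lines, against 75.2, 91.7 and 63.8 CPM in the EIC lines. The intermediate filament gene Vim had 114, 185 and 2071 CPM in the 16IC lines, against 2694, 4367 and 3478 CPM in the EIC lines. For all 3 genes 16IC_1984 and 16IC_4982 were far below the other lines, and 16IC_7391 was of the EIC order. Their part in the levels of the members was not tested. Luminal markers summed to 13806, 13341 and 3244 CPM in the 16IC lines, against 4362, 3474 and 4046 CPM in the EIC lines. Milk and secretory genes of the mammary gland summed to 4171, 5439 and 26789 CPM in the 16IC lines, against 20824, 13821 and 24383 CPM in the EIC lines. These sums came mostly from Spp1, Cp, Lcn2, Mfge8 and Xdh, which are not confined to milk. The casein genes Csn2 and Csn1s1 had no count in 16IC_1984 and 16IC_4982, and Csn2 had 4.29 CPM in 16IC_7391, against 0.744, 78.4 and 3.59 CPM in the EIC lines. Wap, a whey protein gene, was at most 0.128 CPM in any line. Basal markers summed to 753, 1011 and 410.3 CPM in the 16IC lines, against 745, 716 and 1053 CPM in the EIC lines. Adipocyte markers summed to 1.53, 1.31 and 8.96 CPM in the 16IC lines, against 79.97, 56.3 and 54.2 CPM in the EIC lines. Fibroblast markers summed to 1245, 849 and 436 CPM in the 16IC lines, against 749.7, 676 and 625 CPM in the EIC lines, and leukocyte markers to 94.01, 95.9 and 369 CPM in the 16IC lines, against 75.2, 219 and 117 CPM in the EIC lines. The leukocyte sum came mostly from Cd14 and Cd68, and the defining marker Ptprc was at most 0.311 CPM in any line.

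A quasi-likelihood test of 16IC against EIC in edgeR, adjusted after Benjamini and Hochberg over 13698 genes, called 171 genes higher in 16IC, 1.25%. It called 7 of the 89 members that passed its filter on low counts, and 0 members lower, with 82 members and 1728 genes in all higher at a p under 0.05 before adjustment. The 7 were Esrp1, Elf5, Tmprss2, Tmem184a, St14, Slc5a8 and Pdgfb. All 7 had 16IC_7391 above every EIC line. Esrp1 had a log2 fold change of 8.05 with a standard error of 1.22 and an adjusted p of 0.0391 by edgeR. Enpp1 had 4.72 with a standard error of 1.62 and an adjusted p of 0.157 by edgeR, and was not called. Without 16IC_7391 the same test gave Enpp1 a log2 fold change of 5.28 and an adjusted p of 0.0471, and called 91 of 100 members and 941 genes in all higher. Without any 1 of the other 5 lines edgeR called 0 members, with 71 to 79 members below 0.05 before adjustment. The authors' deposited table put 89 members at an adjusted p under 0.05 in the direction of 16IC, against 4.71% of its 23165 genes with a p-value. The choice used these lines, so none of these counts supports the pattern, and the p-values measure only the spread between these 6 libraries.

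All 100 members were protein coding, as were 97.4% of the other genes that met the level and chromosome conditions. They lay on all 18 chromosomes that the choice allowed, from 2 members on chromosomes 8 and 19 to 13 on chromosome 2. The median exonic length was 3970.5 bases in members, against 4723.5 bases in the other genes. A different member lay within 500 kb of 15% of the members, against 9.89% of the other genes. These 15 members formed 8 neighbouring pairs, such as Sigirr and Ano9 only 0.640 kb apart, Prom2 and Mal 91.8 kb apart, and Tnk1 and Cldn7 106 kb apart. Genes lying between the members of a pair mostly lacked the pattern. Enpp1 and Arg1 were 203 kb apart, and between them Med23, a Mediator subunit, had 70.3, 62.3 and 50.6 CPM in the 16IC lines, against 41.3, 35.7 and 38.9 CPM in the EIC lines, and Enpp3, another ENPP ectoenzyme, had 0.319, 1.37 and 1.41 CPM in the 16IC lines, against 0, 1.67 and 1.16 CPM in the EIC lines. Grb7 lay beside Erbb2, which had 155, 152 and 101 CPM in the 16IC lines, against 87.4, 67.3 and 74.2 CPM in the EIC lines. Whether these counts hold reads of the ErbB2 or HER2 transgenes was not tested. Mien1, between the 2 genes, had 14.2, 14.2 and 9.15 CPM in the 16IC lines, against 7.67, 9.97 and 8.05 CPM in the EIC lines. Only Grb7 of these 3 separated 16IC_1984 and 16IC_4982 from 16IC_7391 by 8 times or more.

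Of the nearest flanking genes that reached 10 CPM in a line, 193 were not members. The mean of 16IC_1984 and 16IC_4982 was over 2 times the mean of the other lines in 31 of them, 16.1%, against 7.42% of 9975 comparable genes. Among the 31 was Marveld2, a tricellular junction gene next to Ocln, with 52.2, 47.4 and 10.1 CPM in the 16IC lines, against 0.801, 0 and 0.463 CPM in the EIC lines. Dsg2, a desmosomal cadherin gene next to Dsg3, had 156, 221 and 30.3 CPM in the 16IC lines, against 1.09, 1.61 and 0.29 CPM in the EIC lines. Ripk4, a kinase gene next to Tmprss2, had 91.01, 74.01 and 5.25 CPM in the 16IC lines, against 10.3, 0.179 and 1.91 CPM in the EIC lines. These 3 were chosen after their values were seen. Another gene of the table overlapped 27 members. Strand use in counting is not given, so reads of such partners cannot be told apart. Psapl1, with 20.5 and 17.96 CPM in the 2 high lines, overlapped the more abundant Sorcs2, which had 74.3, 71.4 and 10.4 CPM in the 16IC lines, against 7.5, 0.776 and 16.3 CPM in the EIC lines.

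Promoter sequence was not used in the choice of the members, but the motifs were chosen with earlier results of these data known. RefSeq promoter windows on GRCm38.p6 ran from 250 bases before to 50 after the start. They were found for 63 of the 100 members and 6649 of the 8446 other genes that met the level and chromosome conditions. Coverage was thus lower for the members. The E-box CAGGTG, read on both strands as CAGGTG or CACCTG and known to bind ZEB and SNAI repressors, was in 30 of the 63 member windows, 47.6% with an exact 95% binomial interval of 34.9 to 60.6%. It was in 16.3% of the windows of the other genes and in 20.2% of all 32851 windows. At least 2 such E-boxes were in 12 member windows, 19.05%, against 2.17% of the windows of the other genes and 2.88% of all windows. With only the bases before the start, a setting chosen after seeing the data, the shares were 38.1% in members, 14.3% in the other genes and 17.2% in all windows. E-boxes with other central bases were looked at after this result. CAGCTG was in 15.9% of member windows, 13.6% of those of the other genes and 16.3% of all windows. CATCTG was in 15.9, 9.97 and 17.2% of the same sets, and CACGTG in 6.35, 11.1 and 7.15%.

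The windows that follow show where the E-boxes lie, for 3 members with 4 of them, 1 with 3, the most abundant member with 2, and Enpp1 with none. Each runs 5′ to 3′ on the strand of the gene, with CAGGTG or CACCTG in capitals and the start after the first 250 bases.
Lsr (chr7:30973420-30973719, minus strand): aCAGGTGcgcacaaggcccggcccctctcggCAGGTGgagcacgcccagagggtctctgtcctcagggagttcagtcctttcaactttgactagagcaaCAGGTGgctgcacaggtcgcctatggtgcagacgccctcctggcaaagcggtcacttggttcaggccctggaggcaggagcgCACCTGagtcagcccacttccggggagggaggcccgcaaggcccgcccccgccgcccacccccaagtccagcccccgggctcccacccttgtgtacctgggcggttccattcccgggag
Crb3 (chr17:57061951-57062250, plus strand): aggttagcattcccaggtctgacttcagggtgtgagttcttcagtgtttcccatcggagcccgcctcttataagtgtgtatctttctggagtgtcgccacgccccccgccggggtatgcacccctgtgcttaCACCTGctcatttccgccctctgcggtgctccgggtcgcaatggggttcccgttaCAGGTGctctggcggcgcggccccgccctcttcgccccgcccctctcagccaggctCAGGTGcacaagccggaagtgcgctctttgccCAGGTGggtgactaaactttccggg
Ap1m2 (chr9:21312284-21312583, minus strand): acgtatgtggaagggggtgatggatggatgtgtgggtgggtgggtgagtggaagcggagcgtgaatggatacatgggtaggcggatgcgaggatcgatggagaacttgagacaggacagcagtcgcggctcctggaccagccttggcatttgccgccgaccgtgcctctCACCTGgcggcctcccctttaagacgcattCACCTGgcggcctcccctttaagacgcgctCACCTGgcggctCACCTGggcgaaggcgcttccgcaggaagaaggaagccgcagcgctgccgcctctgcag
Elf5 (chr2:103411848-103412147, plus strand): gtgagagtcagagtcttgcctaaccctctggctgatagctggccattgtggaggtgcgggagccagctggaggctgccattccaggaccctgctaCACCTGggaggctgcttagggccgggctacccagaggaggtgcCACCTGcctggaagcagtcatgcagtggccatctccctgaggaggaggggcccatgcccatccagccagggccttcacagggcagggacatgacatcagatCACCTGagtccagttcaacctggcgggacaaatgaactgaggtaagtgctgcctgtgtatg
Cldn4 (chr5:134946885-134947184, minus strand): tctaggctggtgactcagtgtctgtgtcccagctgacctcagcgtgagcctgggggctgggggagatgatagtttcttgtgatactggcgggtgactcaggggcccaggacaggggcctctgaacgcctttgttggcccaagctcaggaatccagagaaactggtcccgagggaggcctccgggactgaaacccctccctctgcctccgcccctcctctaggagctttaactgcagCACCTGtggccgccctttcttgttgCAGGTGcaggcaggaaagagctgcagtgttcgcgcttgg
Enpp1 (chr10:24712110-24712409, minus strand): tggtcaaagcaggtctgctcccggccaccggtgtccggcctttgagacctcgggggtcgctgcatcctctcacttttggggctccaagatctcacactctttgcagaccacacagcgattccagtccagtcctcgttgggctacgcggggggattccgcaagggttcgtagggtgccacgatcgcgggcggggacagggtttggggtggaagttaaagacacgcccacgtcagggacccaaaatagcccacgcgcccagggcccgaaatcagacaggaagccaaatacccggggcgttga

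In Ap1m2 all 4 E-boxes lay between 81 and 9 bases before the start, and in Lsr they lay between 249 and 69 bases before it. In Crb3 3 lay before the start and 1 after it, and Cldn4 had 1 on each side. Windows with 2 E-boxes also included those of Epcam, Rab25, Elovl7, Map7, Tnk1 and Slc5a8, and that of Tmem184a held 3. The window starts lay within 100 bases of the gene start in the deposited table for 52 of the 63 members. The others lay up to 37356 bases from it and included Elf5 at 410 bases, Crb3 at 3096 bases and Tmem184a at 5634 bases. The E-box is a match of 6 letters. The absence of these letters from the Enpp1 window says nothing of sequence outside it. Zeb1 and Zeb2 levels in the 6 lines are given above, and no binding was measured.

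Of 11 other motifs, the AP-1 site TGANTCA was in 12.7% of member windows, against 4.44% of those of the other genes and 7.81% of all windows. Its exact 95% interval in members, 5.65 to 23.5%, did not include the share of the other genes and included that of all windows. The AP-1 share in members rests on 8 of 63 windows. None of the motif intervals was adjusted for the number of motifs or window settings, or for base content. The intervals of the members included the share of the other genes for the other 10 motifs. In windows from 100 bases before the start the NF-Y box left that group, with 12.7% in members, against 26.0% in the other genes. Among these, the grainyhead site AACCNGTT was in 3.17% of member windows, 1.64% of those of the other genes and 2.09% of all windows, and the GC box GGGCGG in 68.3, 70.7 and 35.7% of the same sets. The observed to expected ratio of CpG dinucleotides had a median of 0.536 in members, against 0.812 in the other genes and 0.384 in all windows. It exceeded 0.6 in 42.9% of member windows, against 81.5% of those of the other genes and 35.8% of all windows. The median GC content was closer, at 60.7% in members, 62.3% in the other genes and 52.7% in all windows.

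**Figure D5:**
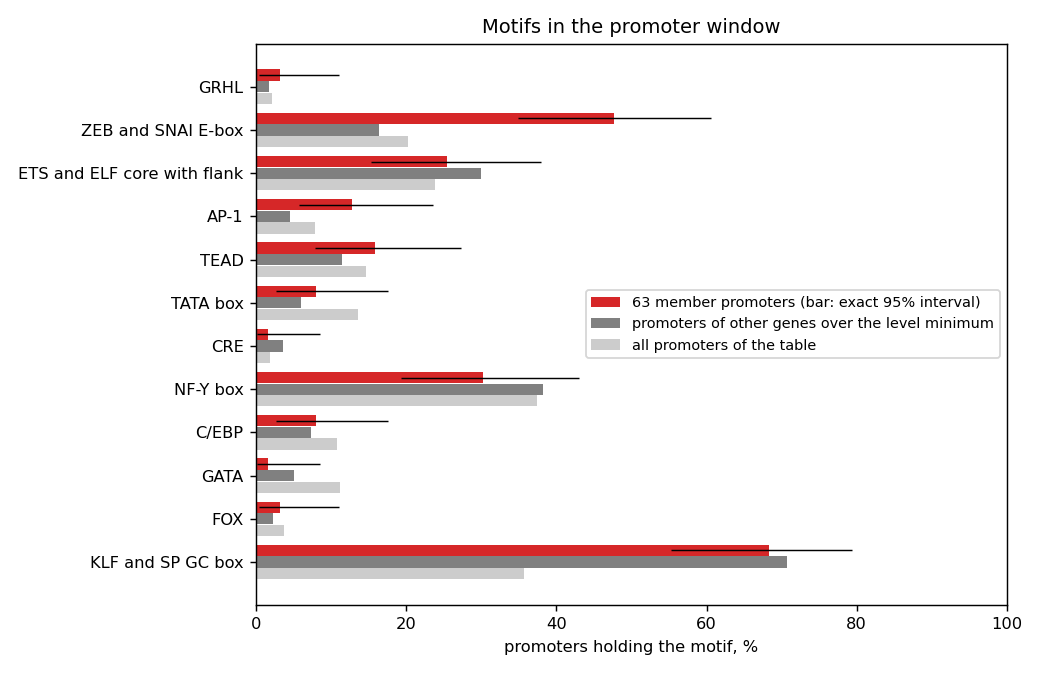
Share of promoter windows that hold each motif, for 63 members (red, with exact 95% binomial intervals), 6649 other genes over the level minimum (dark grey) and all 32851 windows (light grey). The ZEB and SNAI E-box is at 47.6% in members, against 16.3% in the other genes, and the other motifs but AP-1 have member intervals that reach the share of the other genes.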

How the data were processed

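Messenger RNA of 3 16IC and 3 EIC mouse mammary cell lines was sequenced, 1 library for each line. Per the labels' protocols, RNA came from a Qiagen column and the library kit was NEBNext Ultra II. Per the submitters' processing notes, reads were handled with tools that include STAR, HTSeq and Trimmomatic, and limma and edgeR are also listed, with GRCm38 and mm10 as builds. Roles, versions, annotation release and strand setting are not given in these sources. The deposited table holds the authors' read counts for 23449 genes as whole numbers. The authors also deposited FPKM values, a normalised signal that equals the count divided by 1 size factor for each library, a log2 fold change, and a p-value with its adjusted p-value.

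CPM is the count scaled to a library of 1000000 counts. The members, the gene lists, the motifs and the tests were chosen with earlier results of these data known, so no level or ratio of a member was tested as support. Genes were named by a fixed rule: Enpp1, the members with the highest FPKM, the largest ratios, the closest likeness to Enpp1, the extremes between lines, those nearest each threshold, and the members in each list. Roles, and other genes named as examples, were chosen after values were seen.

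16IC was compared with EIC on the counts by edgeR 4.0.16 (R 4.3.3, TMM factors, filterByExpr with a minimum count of 10, quasi-likelihood test, adjusted p under 0.05), without a block. In simulated data with 200 genes changed by a log2 fold of 3, the test on 14177 genes recovered 100% of them. The simulation gave all genes 1 fixed spread and all lines of a group the same change. It therefore does not give the power for genes that differ between lines of a group, as the members do. DESeq2 1.42.0 was an alternative. Promoter windows came from RefSeq (GRCm38.p6), and the last 30 bases of 50 of the 63 member windows lay in a GENCODE transcript of the same gene. Windows were not found for the other members, which are named only. The counts and medians are over all members, of which a few are not reported by name here.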

Additional observations from a re-analysis of the deposited data

How the results depend on the processing

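The number of members was 100 with CPM of library totals, 184 with a ratio of 4 and 65 with a ratio of 16. Leaving out each line in turn gave 106 to 175 members, with 175 without 16IC_7391. Each such step removes a condition, so no member can be lost and the count can only rise. TMM and DESeq2 size factors and levels of 5 or 20 CPM gave 77 to 133 members. Scaling moved the log2 difference of 16IC_1984 and 16IC_4982 from the other lines by -0.08 with TMM and -0.10 with DESeq2 size factors. The edgeR test called 171 genes higher and 164 lower in 16IC. Without a filter on low counts it called 107 higher. DESeq2 called 1091 higher and 941 lower, and 89 members higher. Leaving out each line in turn gave 0 to 941 genes higher, 0 to 972 lower and 0 to 91 members higher. The highest of these counts came without 16IC_7391. Leaving out 16IC_1984 gave 2 higher and 3 lower, and leaving out 16IC_4982, EIC_4026 or EIC_7559 gave 0 of each. Each fit with 0 member calls left 71 to 79 members with an edgeR p below 0.05 before adjustment, and each with 0 genes higher left 1276 to 1536 such genes. For Enpp1, DESeq2 gave a log2 fold change of 4.69 with an adjusted p of 0.00388, and leaving out each line gave 3.98 to 6.57. With windows from 100 bases before the start, the NF-Y box CCAAT was in 12.7% of member windows, with an exact 95% interval of 5.65 to 23.5% that no longer included the share of the other genes, 26.0%. In the full windows the shares were 30.2 and 38.2%. The GATA site was in 0% of short member windows and 1.59% of full ones, against 1.49% and 5.08% in the other genes. The E-box was in 41.3% of short member windows, against 7.22% in the other genes. The cause of these differences was not tested. No paired analysis was possible because the lines carry their own numbers and no number is shared between 16IC and EIC. With 1 library for each line, 3 counts limit what is detectable.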
